A study of Mus musculus with 6 samples.

Results

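The small leucine-rich proteoglycan family was followed in aorta of miR-21 knockout and WT mice, over 9 of its genes. They were the rows of the deposited table whose gene symbol was Lum, Dcn, Bgn, Fmod, Ogn, Prelp, Omd, Aspn or Podn, and all 9 were found among the 22956 genes listed. The 6 RNA libraries came from C57B6 mice at an age of 30 weeks that had eaten a western diet, rich in fat, for 20 weeks. Their tissue label is aorta and their cell type label smooth muscle; the tissue had been frozen, extracted with Trizol and made into TruSeq libraries from 1 ug of RNA, and the labels name no cell sort. The knockout group (3 samples) had the genotype miR-21fl/flmTmG/Myh11ERT2, in which a floxed miR-21 gene can be removed where a Cre driven by the smooth muscle Myh11 promoter acts. The WT group (3 samples) had the genotype WT/mTmG/ Myh11ERT2, so both groups carried the same Cre driver and the mTmG reporter, which changes colour in cells where Cre has acted. This driver makes Cre in cells that express Myh11. Which cells lost miR-21, when and how completely was not analysed here. The comparison asks how the loss of miR-21 bears on the message levels under a diet that both groups shared.

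Small leucine-rich proteoglycans are secreted matrix proteins whose curved, repeat-rich cores bind collagen and set the width and spacing of its fibrils. Many carry chondroitin, dermatan or keratan sulphate chains, and several also bind growth factors such as TGF-beta. In the artery wall decorin, biglycan and lumican are made by fibroblasts and by smooth muscle cells, and biglycan is known as a proteoglycan that retains lipoproteins in atherosclerotic lesions. miR-21 belongs to the microRNAs, which act by base pairing of their seed with sites in messages, mostly in the 3′ untranslated region (UTR).

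The sequences below show the seed of miR-21, the gene floxed in the knockout, and 1 matching site from each of the 4 family genes that lie side by side on chromosome 13. The mature strand is from RefSeq (GRCm38.p6, chr11:86584120-86584141, minus strand), with the seed, bases 2 to 8, in capitals. The sites are from GENCODE M21 transcripts, given 5′ to 3′ on the strand of the message. Their capitals mark ATAAGCT, the match to bases 2 to 8, except in Ogn, where they mark TAAGCT, the shorter match to bases 2 to 7.
mmu-miR-21a-5p: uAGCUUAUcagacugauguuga
Aspn: cagttatATAAGCTttgaagaa
Omd: ttacttcATAAGCTtagagctt
Ecm2: gttaattATAAGCTgacataaa
Ogn: tccaaaacTAAGCTtcagagga

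Aspn and Omd were the 2 of the 9 genes with ATAAGCT in the 3′ UTR of their principal transcript, and the family genes Ecm2 and Epyc held it too. Epyc was at most 0.188 CPM in any library and is not among the genes tested. The site lay 645 bases into the 926-base UTR of Aspn and 140 bases into the 435-base UTR of Omd, counting the first base of TAAGCT from the end of the stop codon. Omd, Ecm2 and Epyc each held a further TAAGCT, and Ogn and Podnl1 held that shorter match alone. No match to either was found in the searched UTRs of Lum, Dcn, Bgn, Fmod, Prelp or Podn. Of 20720 genes searched in the same way, 6.62% held ATAAGCT and 21.8% held TAAGCT. A match is a description of the letters, not evidence of pairing.

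Library totals ranged from 37787465 to 154384307 estimated counts, so every member was well covered: the smallest count was 372, for Podn, and the smallest count of Lum was 30851. Levels are given as CPM, counts scaled to the library total, and corrected by TMM factors, which lay between 0.987 and 1.02. The smooth muscle label was checked against markers. Acta2 and Myh11, of the contractile apparatus, stood at 12063, 15772 and 14740.5 CPM and at 7109.7, 9458 and 8671 CPM in knockout 1, 2 and 3, against 9861, 15575 and 12273 CPM and 5427, 8244 and 7013 CPM in WT 1, 2 and 3. Summed endothelial markers stood at 61.8 to 71.5 CPM in the knockout and 61.3 to 68.7 CPM in WT, macrophage markers were at most 33.7 CPM and lymphocyte markers at most 0.606 CPM. The labels leave unsaid whether replicates came from different animals, so a p-value covers the spread of these samples alone, and that spread may be technical.

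Per kilobase of principal transcript, biglycan was the most abundant message of the family and podocan the least abundant of the 9. Averaged over the 6 libraries, Bgn stood at 1853 CPM per kb, Lum at 973, Dcn at 769, Prelp at 424 and Ogn at 387 CPM per kb. Fmod stood at 33.7, Aspn at 32.7, Omd at 9.61 and Podn at 5.69 CPM per kb. The ranges of neighbours in this order overlapped over the libraries, except that Ogn (329 to 451 CPM per kb) lay wholly above Fmod (5.18 to 68.9) and Aspn (27.7 to 38.7) wholly above Omd (4.92 to 15.2). Within each of the 6 libraries Bgn was above Lum, and Lum above Dcn. The upper part of the order depends on the length used: with the union of all annotated exons, Lum led at 973 CPM per kb, before Bgn at 735, and Dcn, at 232, came after Prelp and Ogn.

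**Figure D1:**
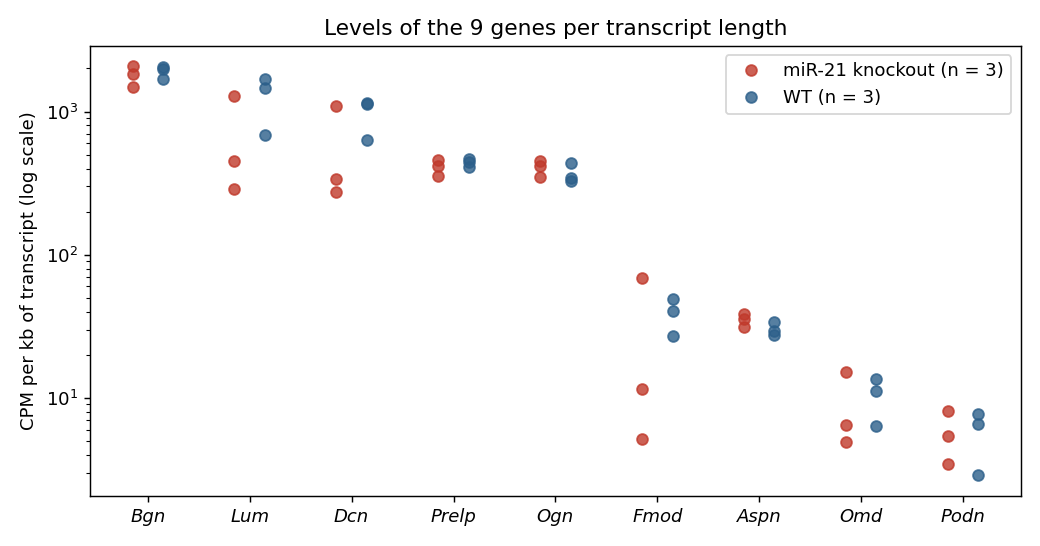
Level of each of the 9 genes in CPM per kb of its principal transcript (log scale), with 1 point per library, knockout left and WT right. Bgn, Lum, Dcn, Prelp and Ogn lie at 276 CPM per kb or more in every library, and the other 4 genes at 68.9 CPM per kb or less.

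In the knockout against WT, none of the 9 genes passed the threshold, 7 had a fold change below 0 and 2 (Ogn and Aspn) above 0. All 9 passed the filter on low counts. By edgeR's quasi-likelihood test with Benjamini-Hochberg adjustment over all genes, 0 of 9 had an adjusted p under 0.05, beside 0% of the 16654 genes tested. At an unadjusted p under 0.05 (edgeR) the count was also 0 of 9, beside 5.96% of all genes, of which 3.95% were higher and 2.01% lower. DESeq2 called 0 of 9 at an adjusted p under 0.05, beside 0.438% of all genes. Without knockout 1, 4 of the 9 were lower and 1 higher at an unadjusted p under 0.05 (edgeR), beside 956 lower and 769 higher of 17158 genes, and 0 of 9 passed after adjustment. Without WT 2, 1 of the 9 was higher at that limit, beside 798 higher and 581 lower of 17242 genes. Leaving out knockout 2, knockout 3, WT 1 or WT 3 gave 0 of 9. In 0 of the 9 genes did the 3 knockout libraries lie wholly above or below the 3 WT libraries, beside 12.1% of all genes. The median log2 fold change of the 9 was -0.11, and that of all genes tested was 0.00 after rounding (-0.0022). A fold change above 0 was found in 49.4% of all genes tested.

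**Figure D2:**
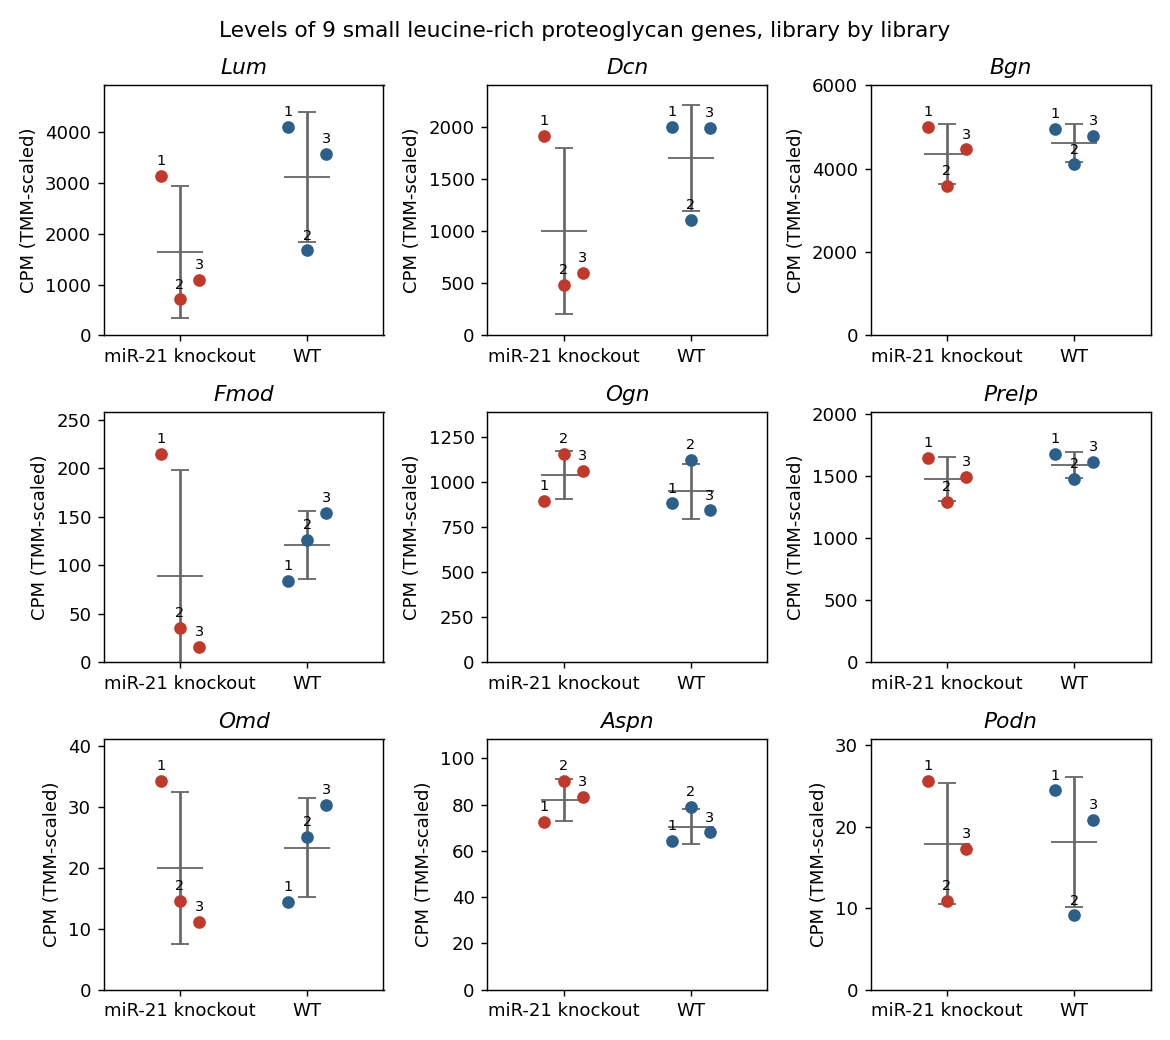
TMM-scaled CPM of each gene in each library, knockout left and WT right, with the replicate number above each point; the long tick is the mean and the bar is 1 SD (n = 3 each), drawn only down to 0 for Fmod. Lum and Dcn are low in knockout 2 and 3 and high in knockout 1, WT 1 and WT 3, while Bgn, Ogn, Prelp and Aspn differ little between libraries.

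Lumican, a keratan sulphate proteoglycan that spaces collagen fibrils (Lum, chromosome 10, 97565128 to 97572703, plus strand, mm10), had the most negative fold change of the 9. It stood at 3130.1, 706 and 1099 CPM in knockout 1, 2 and 3, against 4108, 1673 and 3577 CPM in WT 1, 2 and 3. Knockout 2 and 3 lay below all WT libraries, but knockout 1 lay among them, so the groups overlapped. The mean was 1645 ± 1301 CPM in the knockout and 3119 ± 1280.3 CPM in WT (SD, n = 3 each). The log2 fold change was -0.92 ± 0.62 (SE, edgeR, adjusted p = 0.865), with a 95% interval of -2.43 to 0.58. Without knockout 1 it was -1.80 (edgeR, adjusted p = 0.465), and without knockout 2 it was -0.56.

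Decorin, which wraps collagen fibrils, carries a single dermatan or chondroitin sulphate chain and binds TGF-beta, is encoded 46.98 kb upstream of Lum (Dcn, chromosome 10, 97479609 to 97518143, plus strand). Its levels were 1919.9, 485 and 597 CPM in knockout 1, 2 and 3, against 2007, 1113 and 1995 CPM in WT 1, 2 and 3. The libraries fell into the same places as for Lum: knockout 2 and 3 were lowest, WT 2 came next, and knockout 1 stood beside WT 1 and WT 3. The log2 fold change was -0.77 ± 0.57 (SE, edgeR, adjusted p = 0.872), with an interval of -2.15 to 0.61. It was -1.66 without knockout 1 (edgeR, adjusted p = 0.331) and -0.44 without knockout 2. Lum and Dcn varied 5.82-fold and 4.14-fold over the 6 libraries, yet the ratio of Lum to Dcn in CPM was 1.63, 1.46 and 1.84 in knockout 1, 2 and 3 and 2.05, 1.503 and 1.79 in WT 1, 2 and 3. Their ratio thus moved far less than their levels.

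The spread of Lum and Dcn between libraries was wide. The coefficient of variation of Lum was 79.1% in the knockout and 41.05% in WT, and that of Dcn was 79.8% in the knockout and 30.1% in WT. Of all genes tested, 4.08% had a larger standard error than Lum and 5.24% a larger one than Dcn, where the median standard error was 0.136. The interval for Lum runs from 0.186 to 1.49 times its WT level, and that for Dcn from 0.225 to 1.53 times.

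Markers of adventitial fibroblasts, cells of the outer wall that make much decorin and lumican, also varied between libraries. The 13 markers, none of them a member, summed to 820, 458 and 482 CPM in knockout 1, 2 and 3, against 1055, 533 and 752 CPM in WT 1, 2 and 3. This sum is weighted to the abundant genes. With equal weight for the 12 tested, WT 2 was lowest instead. Their mean log2(CPM + 0.5), centred on each gene's mean over the 6 libraries, was 0.41, -0.397 and -0.322 in knockout 1, 2 and 3. In WT 1, 2 and 3 it was 0.667, -0.515 and 0.157. Of the 12 tested, 10 were lower and 2 higher in the knockout, 0 passed, and the median log2 fold change was -0.24. Among all genes tested, 49.4% had a fold change above 0. Dpt, Clec3b, Cd34, Scara5, Cd248, Mfap5, Serpinf1 and Tcf21 turned direction in at least 1 fit with 1 library left out. Without WT 1, Scara5 was at 0.22 and Serpinf1 at 0.48 (log2 fold change). Ly6a, the stem cell antigen Sca-1, stood at 159, 35.7 and 53.9 CPM in knockout 1, 2 and 3, against 303, 100.2 and 190.1 CPM in WT 1, 2 and 3. Mfap5, a microfibril protein, did not follow, with 104, 147 and 130.3 CPM in knockout 1, 2 and 3, against 121, 144 and 105 CPM in WT 1, 2 and 3. Dpp4 was at 0 in knockout 3, WT 1 and WT 3. The part of these cells in the values of Lum and Dcn was not tested, and in bulk RNA fewer cells of a type and less RNA per cell cannot be told apart.

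The genes nearest to Lum over the 6 libraries were, in order, Ly6e, Hgf, Tnfaip2, Ly6a and Spp1. Likeness was the root-mean-square difference of log2(CPM + 0.5) centred on each gene's mean, among 10749 genes, and ran from 0.126 for Ly6e to 0.225 for Spp1. The nearest to Dcn were Ly6e (0.148), Tnfaip2, Hp, Adcy2 and the gelatinase gene Mmp2 (0.224). Ly6e, a membrane protein of the Ly6 family, stood at 71.8, 15.2 and 19.3 CPM in knockout 1, 2 and 3, against 82.5, 33.3 and 66.4 CPM in WT 1, 2 and 3. Spp1, which encodes osteopontin, stood at 5749, 905 and 1541 CPM in the knockout and at 5148, 1868 and 4491 CPM in WT. In both genes knockout 2 and 3 were the lowest libraries, and knockout 1 lay with WT 1 and WT 3. Both were picked for likeness over these same libraries, so this order follows from the choice.

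Fibromodulin, a collagen-binding proteoglycan abundant in cartilage and tendon (Fmod, chromosome 1, 134037254 to 134048277, plus strand), was the most variable of the 9, with a 13.3-fold range. It stood at 215, 36.0 and 16.2 CPM in knockout 1, 2 and 3, against 83.9, 126 and 154 CPM in WT 1, 2 and 3. Knockout 1 was the highest library and knockout 2 and 3 the lowest, with WT between them, so the groups overlapped. Its log2 fold change was -0.45 ± 0.91 (SE, edgeR, adjusted p = 0.955), -2.23 without knockout 1 and 0.05 without knockout 3, so its direction rested on 1 library.

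Osteomodulin, a keratan sulphate proteoglycan of bone (Omd, chromosome 13, 49582462 to 49592822, plus strand), had nearly the same order of libraries at lower levels. It stood at 34.2, 14.6 and 11.1 CPM in knockout 1, 2 and 3, against 14.4, 25.1 and 30.3 CPM in WT 1, 2 and 3. Knockout 1 was again the highest and knockout 3 the lowest, and the groups overlapped. Its fold change on the log2 scale was -0.23 ± 0.48 (SE, edgeR, adjusted p = 0.955), and it turned to 0.06 without knockout 3 and to 0.01 without WT 3. Omd holds ATAAGCT, and its interval of -1.40 to 0.93 allows a change in either direction.

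Summed cartilage markers had the same order of the 6 libraries as Omd, and that of Fmod except that WT 1 and knockout 2 changed places. Of 9 chondrocyte-like markers, Chad included, 8 were in the table, and they summed to 1879, 402 and 252 CPM in knockout 1, 2 and 3, against 400.2, 867 and 1145 CPM in WT 1, 2 and 3. Col2a1, the cartilage collagen, stood at 1217, 30.5 and 3.43 CPM in knockout 1, 2 and 3, against 101, 266 and 124 CPM in WT 1, 2 and 3. Comp, a matrix protein of cartilage and tendon, stood at 222, 187.2 and 114.3 CPM in the knockout and 146, 327 and 567 CPM in WT. Chad, a family gene named chondroadherin for its place in cartilage, stood at 136, 31.2 and 0.139 CPM in knockout 1, 2 and 3, against 9.20, 71.2 and 214 CPM in WT 1, 2 and 3. Knockout 1 thus held the most Col2a1 and knockout 3 the least Col2a1 and Chad. Matn3, a matrilin of cartilage, was at most 0.188 CPM, and 0 of the 8 were at 0 in all libraries. The part of cartilage-like cells in the values of Fmod and Omd was not tested.

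**Figure D3:**
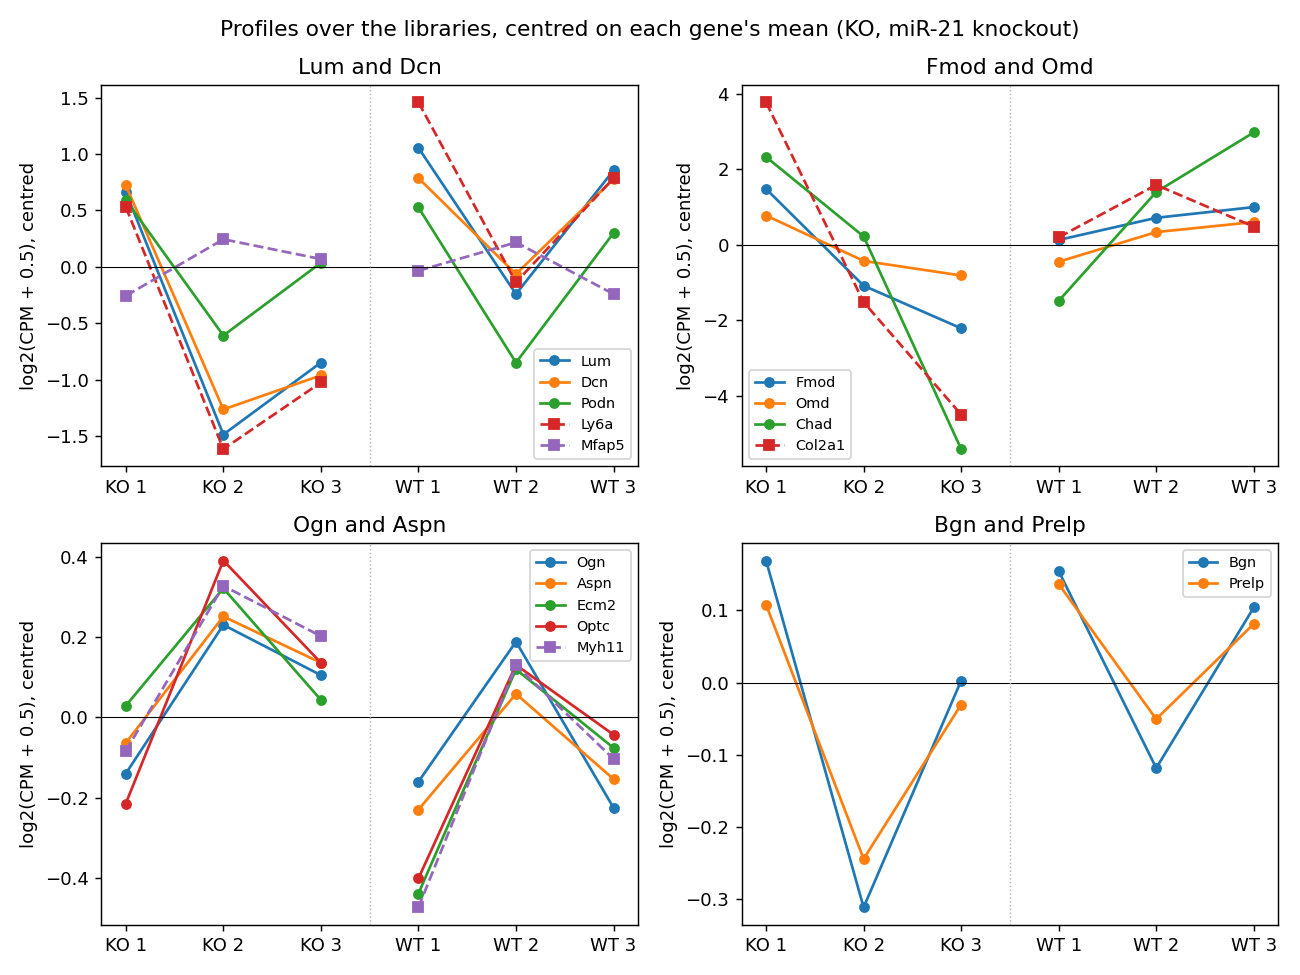
Log2(CPM + 0.5) of family genes (circles, solid lines) and of marker genes (squares, dashed lines) in each library, centred on each gene's mean over the 6 libraries, knockout (KO) left and WT right, with different vertical scales. Lum and Dcn lie below 0 in knockout 2 and 3 and WT 2, Ogn and Aspn lie above 0 in those 3 libraries, Fmod spans 13.3-fold, and Bgn and Prelp stay close to 0; the panels were grouped after the values were seen.

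Biglycan, the close relative of decorin with a pair of chains (Bgn, X chromosome, 73483602 to 73495933, plus strand), and Prelp, a collagen-binding protein of matrix next to basement membranes (chromosome 1, 133910304 to 133921414, minus strand), varied little. Bgn stood at 5005, 3587 and 4459 CPM in knockout 1, 2 and 3, against 4954, 4100.0 and 4784 CPM in WT 1, 2 and 3. Prelp stood at 1647, 1289.8 and 1496 CPM in knockout 1, 2 and 3, against 1679.7, 1475 and 1617 CPM in WT 1, 2 and 3. In both genes knockout 2 was the lowest library and the groups overlapped. Bgn had a log2 fold change of -0.08 ± 0.16 (SE, edgeR, adjusted p = 0.948), with an interval of -0.45 to 0.28, and it turned to 0.04 without knockout 2. That of Prelp was -0.11 ± 0.12 (SE, edgeR, adjusted p = 0.908), with an interval of -0.39 to 0.18. These intervals reach down to 0.730 of the WT level for Bgn and to 0.764 for Prelp. Prelp shares 350 exonic bases with the antisense gene Gm15851, and no source used here says whether counting used strand. The Y-linked gene Ddx3y was at 138.4 to 157 CPM in all 6 libraries, so no library lacked it beside the X-linked Bgn.

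Osteoglycin, also called mimecan (Ogn, chromosome 13, 49608046 to 49624501, plus strand), had 1 of the 2 fold changes above 0. The other was that of asporin (Aspn, chromosome 13, 49544443 to 49567565, plus strand), a relative of decorin that binds TGF-beta and has an aspartate-rich end. Ogn stood at 895, 1158 and 1061 CPM in knockout 1, 2 and 3, against 883, 1124 and 844 CPM in WT 1, 2 and 3. Aspn stood at 72.4, 90.2 and 83.2 CPM in knockout 1, 2 and 3, against 64.4, 78.8 and 68.0 CPM in WT 1, 2 and 3. In both, the groups overlapped, and knockout 2 and WT 2 were the highest libraries of their groups. Ogn had a log2 fold change of 0.13 ± 0.15 (SE, edgeR, adjusted p = 0.911), with an interval of -0.22 to 0.48 and values of 0.04 to 0.26 with each library left out. That of Aspn was 0.22 ± 0.11 (SE, edgeR, adjusted p = 0.856), with an interval of -0.04 to 0.47 and values of 0.14 to 0.30. Aspn had the smallest unadjusted p of the 9 (0.0819, edgeR). It holds ATAAGCT, while Ogn holds only the shorter match.

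The 12 contractile markers had an order of libraries close to that of Ogn and Aspn. They summed to 34997, 45355 and 42427 CPM in knockout 1, 2 and 3, against 29303, 42799.6 and 35874 CPM in WT 1, 2 and 3. Of these 12, 10 were higher and 2 (Des and Casq2) lower in the knockout, and 0 passed, where 49.4% of all genes were above 0. Des stood at 97.7, 148 and 173 CPM in knockout 1, 2 and 3. In WT 1, 2 and 3 it stood at 183, 201 and 190 CPM, without overlap of the groups, as in 12.1% of all genes. Its log2 fold change was -0.45 ± 0.20 (SE, edgeR, adjusted p = 0.835). Tagln, Cnn1, Smtn and Casq2 turned direction in at least 1 fit with 1 library left out. Knockout 2, WT 2 and knockout 3 held the most contractile message and the least Lum and Dcn. The part of smooth muscle content in the values of Ogn and Aspn was not tested.

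Podocan (Podn, chromosome 4, 108014791 to 108096445, minus strand), a more distant member reported to restrain smooth muscle growth, stood at 25.6, 10.9 and 17.3 CPM in knockout 1, 2 and 3, against 24.5, 9.13 and 20.8 CPM in WT 1, 2 and 3. Knockout 2 and WT 2 were the lowest libraries, knockout 1 and WT 1 the highest, and the groups overlapped. Its log2 fold change was -0.02 ± 0.44 (SE, edgeR, adjusted p = 0.995), and it ran from -0.37 without knockout 1 to 0.24 without WT 1.

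**Figure D4:**
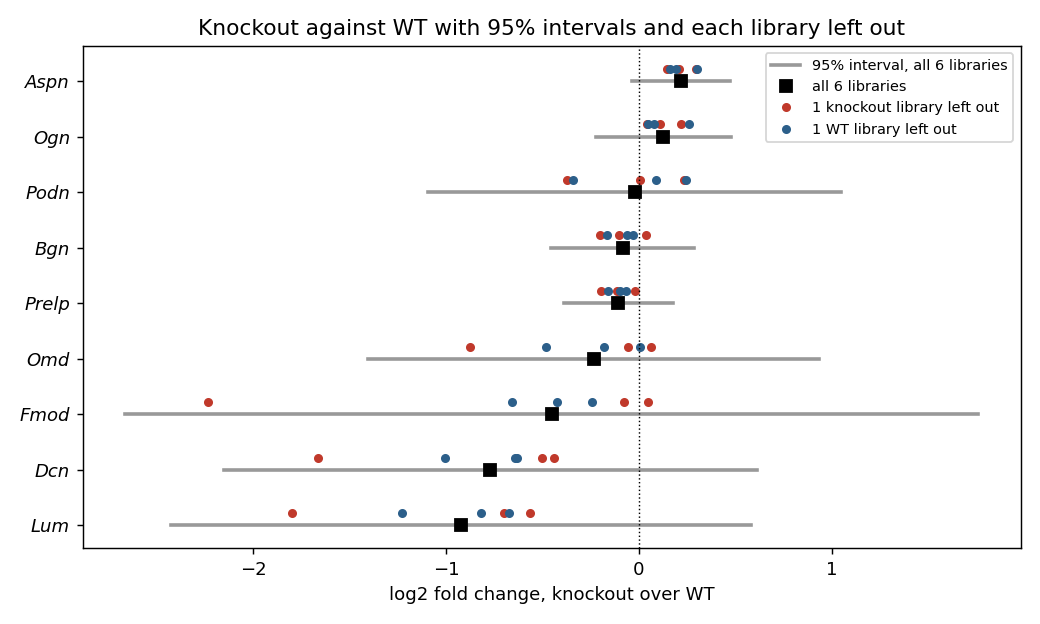
Log2 fold change of each gene, knockout over WT, from edgeR (square) with its 95% interval (grey line), and above each square the values with 1 knockout (red) or 1 WT (blue) library left out. All 9 intervals include 0; leaving out knockout 1 moves Fmod to -2.23, Lum to -1.80 and Dcn to -1.66, and Aspn and Ogn stay above 0 throughout.

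Together the 9 genes made up 1.29%, 0.738% and 0.884% of scaled counts in knockout 1, 2 and 3, against 1.38%, 0.972% and 1.31% in WT 1, 2 and 3. Their summed level was 12944, 7376 and 8840.2 CPM in the knockout and 13818, 9725 and 13089 CPM in WT. Lum took 24.2%, 9.57% and 12.4% of the sum in knockout 1, 2 and 3, against 29.7%, 17.2% and 27.3% in WT 1, 2 and 3. Bgn took 38.7%, 48.6% and 50.4% in the knockout and 35.9%, 42.2% and 36.6% in WT. The share of Bgn was thus highest where Lum and Dcn were low, as a share rises when other parts of the sum fall. The level of Bgn itself was lowest in knockout 2, at 3587 CPM.

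**Figure D5:**
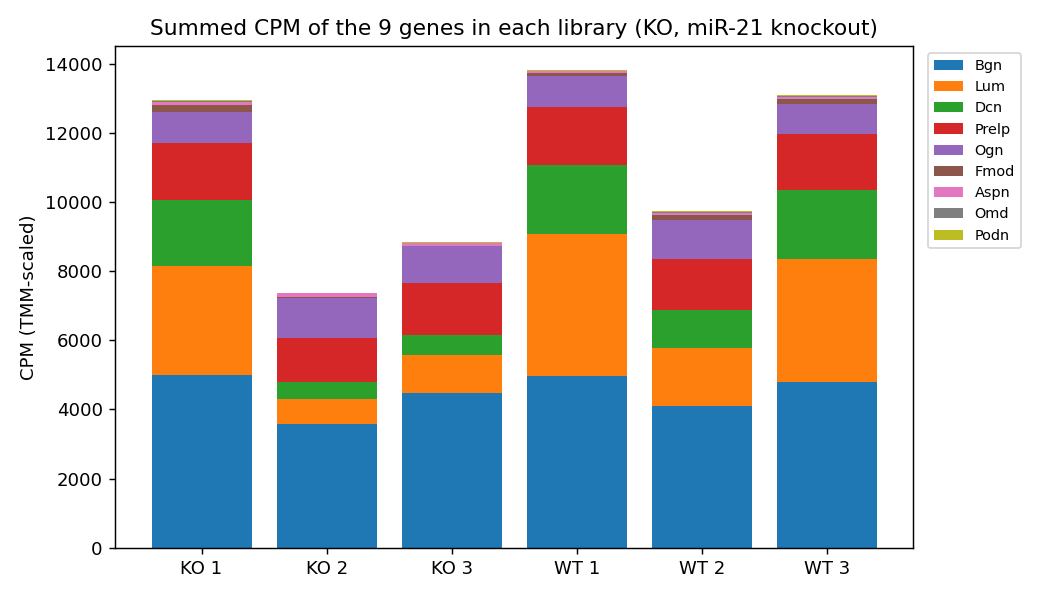
Summed TMM-scaled CPM of the 9 genes in each library (bars from 0), split by gene, knockout (KO) left and WT right. The Lum and Dcn segments are smallest in knockout 2 and 3, where Bgn takes 48.6% and 50.4% of the sum.

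Distances between profiles are given as a description of size only. A root-mean-square difference grows with how much either gene varies, so genes that vary little are near each other whatever their direction: Prelp and Aspn stood 0.290 apart, although their centred values had opposite signs in all 6 libraries. Of the 36 pairs among the 9 genes, Bgn and Prelp, on different chromosomes, were nearest, with a root-mean-square difference of 0.0496. Ogn and Aspn on chromosome 13 came next at 0.0754, and Lum and Dcn on chromosome 10 after them at 0.171. Omd lies between Aspn and Ogn, with gaps of 14.9 kb and 15.2 kb, but stood 0.678 from Aspn and 0.695 from Ogn. Fmod and Prelp, 116 kb apart on chromosome 1, stood 1.21 from each other, and Fmod was nearer to Dcn (0.737) and Omd (0.766). Ecm2, 11.7 kb from Aspn, stood 0.112 from it. The gene Cenpp spans this part of chromosome 13 on the other strand, shares 7 exonic bases with Aspn, and was at most 0.483 CPM.

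Of the 8 other family genes listed, 7 were in the table and 5 were tested, with 3 higher, 2 lower and 0 passed. Ecm2 stood at 237, 291 and 239.8 CPM in knockout 1, 2 and 3, against 171, 253 and 221 CPM in WT 1, 2 and 3, a log2 fold change of 0.25 ± 0.16 (SE, edgeR, adjusted p = 0.863). Opticin (Optc), best known from the eye, stood at 25.4, 38.9 and 32.5 CPM in the knockout and at 22.3, 32.4 and 28.7 CPM in WT. Ecm2 and Optc both had their highest level in knockout 2 and their lowest in WT 1, as Aspn did. Tsku, a secreted signalling inhibitor, stood at 3.18 to 6.84 CPM in the knockout and 3.95 to 7.70 CPM in WT, and Nyx, of the retina, at 0.641 to 1.13 CPM in the knockout and 0.237 to 0.761 CPM in WT. Chad had a log2 fold change of -0.83 ± 1.70 (SE, edgeR, adjusted p = 0.955), and 0.47 without WT 3. Epyc and Podnl1 did not pass the filter on low counts, and Kera had no row among the deposited counts.

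Collagens and proteins of the collagen fibril, to which these proteoglycans bind, were mostly lower without passing. Of 20 genes, 18 were lower and 2 higher, 0 passed, and the median log2 fold change was -0.16. Col1a1, Col1a2, Col5a1, Col5a3, Col6a3, Col11a1, Dpt, Thbs2, Lox and Loxl2 turned direction in at least 1 fit with 1 library left out. Of all genes tested, 49.4% had a fold change above 0. The smallest p were those of Comp (-0.99 ± 0.50, SE), Tnxb, the tenascin of collagen-rich tissue (0.18 ± 0.11), and Col6a1, of the beaded filaments (-0.19 ± 0.12), with edgeR adjusted p of 0.859, 0.859 and 0.862. Comp was at -0.44 without WT 3. The list summed to 19974, 11935.5 and 13446.5 CPM in knockout 1, 2 and 3, against 20877, 14112 and 18496 CPM in WT 1, 2 and 3. As for Lum and Dcn, knockout 2 and 3 and then WT 2 were lowest.

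Enzymes that build the sugar chains of proteoglycans were listed as well. Of 23 genes tested, 9 were higher and 14 lower, 0 passed, and the median log2 fold change was -0.06. Chst3, a chondroitin sulphotransferase, stood at 63.0, 61.2 and 62.8 CPM in knockout 1, 2 and 3, against 50.1, 57.0 and 55.8 CPM in WT 1, 2 and 3. Its groups did not overlap, as in 12.1% of all genes, and its log2 fold change was 0.20 ± 0.07 (SE, edgeR, adjusted p = 0.793). Chst2, which sulphates keratan-type chains (-0.29 ± 0.13, SE), and Ust, a sulphotransferase of uronic acids (0.15 ± 0.08), came next, with edgeR adjusted p of 0.835 and 0.859.

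Of 18 growth factors and receptors that bind or answer to these proteoglycans, 9 were higher, 9 lower and 0 passed, with a median log2 fold change of -0.03. Igf1r, the IGF1 receptor to which decorin binds, stood at 76.9, 78.1 and 77.7 CPM in knockout 1, 2 and 3. In WT 1, 2 and 3 it stood at 59.9, 73.7 and 67.6 CPM. Its groups did not overlap, nor did those of Tgfb3, as in 12.1% of all genes. Igf1r had a log2 fold change of 0.21 ± 0.08 (SE, edgeR, adjusted p = 0.830). Tgfb3, a TGF-beta ligand, and Tgfbr3, betaglycan, had values of 0.15 ± 0.07 and 0.16 ± 0.10 (SE), with edgeR adjusted p of 0.841 and 0.864. Of 12 proteases that act on matrix proteoglycans, 10 were lower, 2 higher and 0 passed, with a median of -0.43. Of all genes tested, 49.4% were above 0. Mmp9, Mmp12, Adamts4 and Adamts5 turned direction in at least 1 fit with 1 library left out. Without WT 1, Mmp12 was at 0.89, Adamts4 at 0.18 and Mmp3 at -0.11, against -1.10, -0.46 and -0.90 with all libraries. The smallest p there were those of Tll1, a relative of the biglycan-processing protease BMP1 (-1.01 ± 0.71, SE), Htra1 (-0.11 ± 0.08) and Adamts1 (0.19 ± 0.15), with edgeR adjusted p of 0.866, 0.872 and 0.872. Tll1 was near the floor, at 0.0687 to 0.617 CPM in the knockout and 0.344 to 0.765 CPM in WT, with a smallest count of 3. These medians stand beside -0.0022 for all genes tested.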

How the data were processed

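The deposited table gives, for each gene and each of 6 libraries, estimated counts that the authors deposited without normalization; 43.6% to 54.3% of a library's values are exactly whole. The submitters' processing notes name mm10, STAR 2.6 and DESeq2, with no role; no source used here gives the counter or annotation. Columns were assigned by the sample code in their names, and 0 columns stayed unassigned. End coordinates were lowered by 1 to match GENCODE M21.

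After rounding, filterByExpr kept 16654 genes. With TMM factors, edgeR 4.0.16 (R 4.3.3) fitted a robust quasi-likelihood model, and its two-sided F test was adjusted by Benjamini-Hochberg, with a threshold of 0.05. Alternatives used DESeq2 1.42.0 and limma 3.58.1. CPM, per-length levels and figures were computed in Python 3.11.15. The count test was checked on simulated data. Library totals were at least 37787465, and the median standard error over genes was 0.136 (log2), which holds the spread between libraries as well as counting error. No libraries were merged, since the mean chi-square per gene within a group was 30.2 to 109.

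Same-numbered libraries had deviations from their group means that correlated at 0.289, 0.317 and -0.0263, so the numbers were not taken as pairs. 3′ UTRs were those of the best APPRIS transcript.

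The members and lists were chosen with earlier results of these data known. Named were the members, the other family genes, the 3 smallest p of each list, the 2 most abundant genes of marker lists and markers at or near 0, and the 5 nearest genes to Lum and Dcn. BMP1 and genes at exonic overlaps were named in passing.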

Additional observations from a re-analysis of the deposited data

How the results depend on the processing

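In each of the 15 alternatives 0 members were called. At an unadjusted p under 0.05, edgeR had 0 members with all libraries, beside 5.96% of all genes. Without knockout 1 it had 5 (Lum, Dcn, Fmod and Omd lower, Aspn higher), beside 956 lower and 769 higher of 17158 genes. Without WT 2 it had 1 (Aspn higher), beside 798 higher and 581 lower of 17242 genes. Under the replicate block it had 2 (Lum lower, Aspn higher), beside 1189 higher and 918 lower of 16654 genes. By limma-voom there was 1 (Fmod lower), beside 1135 higher and 801 lower of 16654 genes. The count of genes called over the whole table, 0, was 73 with DESeq2's Wald test and 1 with the replicate number as a block (edgeR, replicate block), and 0 to 1 with each library left out; the cause was not tested. Knockout 3 correlated best with WT 2 (0.117), not with WT 3, so the numbers give no clear pairing. Under the replicate block Lum was at -1.12 and Aspn at 0.22, with no member past the threshold. Of 126 member values, 117 kept their direction and side of the threshold and 9 turned direction. Podn was at 0.0056 under the replicate block and from -0.37 to 0.24 with each library left out, Bgn from -0.20 to 0.036, Fmod from -2.23 to 0.048 and Omd from -0.87 to 0.064; the cause was not tested. With sample quality weights in limma-voom, Fmod was at -1.91, Lum at -1.20 and Dcn at -1.13, without a call. The median of the 9 ran from -0.37 without knockout 1 to 0.0036 without knockout 3. Thinned to the smallest library total, Lum was at -0.93, with 0 members called.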

Other observations

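Large and cell surface proteoglycans, listed beside the small ones, had 21 tested genes, of which 13 were higher and 8 lower in the knockout, with 0 passed and a median log2 fold change of 0.09. Hspg2, which encodes perlecan, the heparan sulphate proteoglycan of basement membranes to which Prelp binds, stood at 618, 561 and 632 CPM in knockout 1, 2 and 3, against 461, 495 and 449.8 CPM in WT 1, 2 and 3. Cspg4, the proteoglycan NG2 of mural cells, stood at 1247, 1294 and 1242 CPM in the knockout and at 851, 1102 and 995 CPM in WT. For both, the lowest knockout library was above the highest WT library; groups without overlap made up 12.1% of all genes. Their log2 fold changes were 0.37 ± 0.08 and 0.36 ± 0.11 (SE), with edgeR adjusted p of 0.735 and 0.793, so neither passed. Gpc6, a glypican, had -0.26 ± 0.13 (SE, edgeR, adjusted p = 0.856).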
